A study of Homo sapiens with 4 samples.

Results

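The transcripts of the human mitochondrial genome were followed as the 37 gene symbols that begin with MT-, out of 56655 symbols in the count tables. They comprise 13 mRNAs, counted here by reading frame, 2 rRNAs and 22 tRNAs. Each symbol was found in the annotation of the mitochondrial chromosome. RNA came from OVCAR5, an established human ovarian cancer cell line labelled as high-grade serous and of ascites origin. The shCtrl group (n = 2 libraries) carried a nontargeting short hairpin RNA, and the shFOXK2 group (n = 2 libraries) carried a hairpin against the forkhead transcription factor gene FOXK2. Both groups were stable lentiviral lines selected with puromycin, so controls also carried vector and drug resistance, and the submitters describe the pairs as biological duplicates without saying what separated them. All values come from a single cell line. The p-values measure only the spread between these libraries, and the spread of each gene was estimated partly from the other tested genes.

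The mitochondrial genome is a small circle whose strands are each copied into long precursor RNAs. Most genes are read from the heavy strand, whereas MT-ND6 and several tRNAs are read from the light strand. The tRNAs lie between the longer genes and are cut out by RNase P and ELAC2, which frees the mRNAs and rRNAs around them. The mRNAs then gain short poly(A) tails, and they encode core subunits of respiratory complexes I, III and IV and of ATP synthase (complex V). MT-ND6 is known as the mRNA that lacks a stable tail, and the rRNAs carry only a few adenines, which matters here because the libraries were made from oligo(dT)-selected RNA.

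Library totals ran from 14284005 to 21950873 counts, and counting at such depth left a 95% Wilson interval of at most 0.123 percentage points around any share of MT- counts in a single library. Intervals cover counting error only, because reads amplified without molecular identifiers are not independent molecules. FOXK2 itself, the check of the hairpin, had 1796 and 1499 counts in the controls and 1086 and 1084 in shFOXK2. Its log2 fold change of shFOXK2 over shCtrl (log2FC below) was −0.36 (SE 0.25), which did not pass the test (adjusted p-value 0.257). The 7 epithelial markers examined had counts in all 4 libraries, summing to 3849 and 5098 CPM (counts scaled to library size, with TMM factors) at the lowest and highest in shCtrl and to 3591 and 4748 CPM in shFOXK2. KRT8, KRT18 and KRT19 carried most of that sum and were not called, nor was EPCAM, whereas CDH1 (log2FC −4.02), MUC1 (−2.76) and CLDN4 (−1.02) were called lower. Of 5 ovarian serous markers, WT1 had at most 2 counts in a library, and the summed level was 134 to 152 CPM in shCtrl against 25.8 to 26.4 CPM in shFOXK2. PAX8, MUC16 and WFDC2 were called lower, and MSLN was called higher (log2FC 1.10). The part of these marker differences in the mitochondrial values was not tested. The 10 leukocyte, endothelial and fibroblast markers summed to 21.1 to 25.1 CPM in shCtrl and 14.9 to 16.9 CPM in shFOXK2, and the endothelial marker CDH5 was at 0 counts in both shFOXK2 libraries. MALAT1, a nuclear noncoding RNA, took 0.0427% and 0.0239% of counts in the controls and 1.19% and 1.02% in shFOXK2, and its part in the mitochondrial values was not tested.

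The share of all counts taken by MT- genes in these oligo(dT)-selected libraries did not separate the groups. MT- genes took 6.71% and 8.87% of counts in shCtrl and 9.58% and 8.60% in shFOXK2, that is 7.79% ± 1.53 against 9.09% ± 0.694 (SD, n = 2 each). The shFOXK2 replicate 2 library lay between the shCtrl libraries. In bulk RNA, a larger mitochondrial share and less nuclear mRNA per cell cannot be told apart. The raw sum of MT- counts was close in all libraries, from 1367856 to 1524203, although their total depth differed. The composition of that sum was a different matter. The mRNAs made up 82.6% and 83.9% of MT- counts in shCtrl and 90.4% and 88.6% in shFOXK2, with no overlap between groups. The rRNAs made up 17.2% and 15.9% in shCtrl and 9.53% and 11.3% in shFOXK2. As shares of the same sum, the larger mRNA part and the smaller rRNA part are not separate results. The genes read from the light strand made up 2.14% and 2.04% of MT- counts in shCtrl and 4.11% and 4.83% in shFOXK2, nearly all of it MT-ND6. The tRNAs stayed below 0.19% in each library.

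Levels per length were compared first. Among the 15 mRNAs and rRNAs, MT-CO2, which encodes a subunit of cytochrome c oxidase, had the highest mean level per kb of gene in both groups, 13259 ± 4031 CPM per kb in the controls against 19760 ± 2366 (SD, n = 2 each). In shCtrl, by full gene length, it was followed by MT-CO3, MT-ND4, MT-ND3 and MT-CO1, whose means of 8979, 8209, 7926 and 7827 CPM per kb differed by less than their SDs. MT-RNR1, the RNA of the small ribosomal subunit, was the lowest in both groups, at 1756 ± 273 and 1481 ± 78.3 CPM per kb. MT-ND2 ranked second lowest of the 15 in shCtrl, at 2152 ± 515 CPM per kb, and reached 6270 ± 1830 in shFOXK2. MT-ND4L took the opposite path, from 5316 ± 1073 to 1802 ± 406 CPM per kb. The mean level of MT-ND6 went from 2883 ± 580 to 7432 ± 124 CPM per kb.

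**Figure D1:**
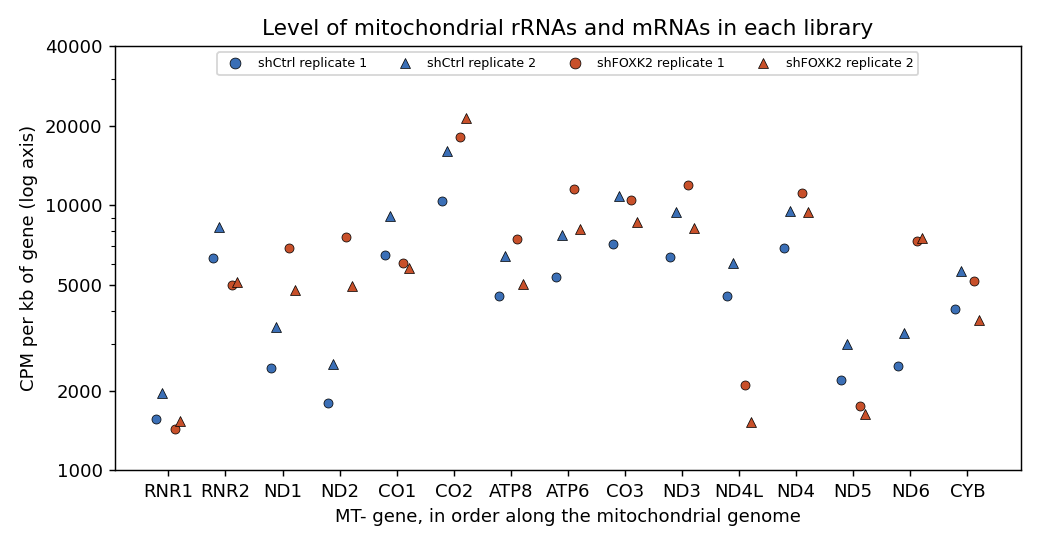
Level of each mitochondrial rRNA and mRNA in each library, in CPM per kb of gene on a log axis, with genes in order along the mitochondrial genome and each point a library. ND1, ND2 and ND6 sit higher and ND4L lower in both shFOXK2 libraries than in both shCtrl libraries, while CO2 has the highest mean in each group.

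Genes were then compared between groups in a fit of all 16417 genes that passed the count filter, of which 20 were MT- genes (13 mRNAs, 2 rRNAs and 5 tRNAs). In shFOXK2, 4 members were higher (MT-ND1, MT-ND2, MT-ND6 and MT-TF) and 2 were lower (MT-ND4L and MT-TC), at an adjusted p-value under 0.05. Over all tested genes 25.7% were called higher and 22.7% lower, 48.4% in all. The count of called members was thus below the background, and no call was made for 14 tested members. Over all 20 tested members the log2FC values ran from −1.56 to 1.54 with a median of 0.14, beside 0.04 over all tested genes. Groups did not overlap for 14 of the 20, with 6 higher and 8 lower, against 75.4% of all tested genes, 39.2% higher and 36.2% lower. Without shFOXK2 replicate 1 the count called higher fell to 2, since MT-ND1 and MT-TF had adjusted p-values of 0.111 and 0.056. Without shCtrl replicate 1 the count called lower was 6, with MT-CO1, MT-ND5, MT-RNR2 and MT-TY added.

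The mitochondrial genome encodes 7 mRNAs of complex I (NADH dehydrogenase), the proton pump that takes electrons from NADH. Together these mRNAs made up 33.9% ± 0.354 of MT- counts in the controls against 41.3% ± 2.84 (SD, n = 2 each). Of these, 3 were called higher, 1 lower and 3 were not called, beside the 48.4% called over all tested genes. MT-ND2 (ENSG00000198763.3, chrM:4470-5511, plus strand, hg38) was at 1863 and 2623 CPM in shCtrl and at 7882 and 5185 CPM in shFOXK2. Its lowest shFOXK2 library was above its highest shCtrl library, and the log2FC was 1.54 (SE 0.30, adjusted p-value 0.00103), 2.91-fold higher, a call that an offset on A content ended (log2FC 0.81, adjusted p-value 0.116). MT-ND1 (ENSG00000198888.2, chrM:3307-4262), its neighbour upstream, was at 2326 and 3314 CPM in shCtrl and 6589 and 4565 CPM in shFOXK2. It rose 1.98-fold, a log2FC of 0.98 (SE 0.29, adjusted p-value 0.0136). MT-ND6 (ENSG00000198695.2, chrM:14149-14673, minus strand), the light-strand mRNA, was at 1298 and 1729 CPM in shCtrl and 3856 and 3948 CPM in shFOXK2. The replicates of MT-ND6 in shFOXK2 nearly coincided, and the log2FC was 1.37 (SE 0.26, adjusted p-value 0.000921). The strand setting of the counting is not given in the sources used here, so heavy-strand RNA that crosses MT-ND6 in antisense cannot be told apart from MT-ND6 itself.

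MT-ND4L (ENSG00000212907.2, chrM:10470-10766), the shortest of these complex I genes, had the largest fall in counts of any tested member. It was at 1354 and 1804 CPM in shCtrl and at 620 and 450 CPM in shFOXK2, 2.95-fold lower, with a log2FC of −1.56 (SE 0.27, adjusted p-value 0.000406). MT-ND5 (ENSG00000198786.2, chrM:12337-14148), the longest, was at 3981 and 5416 CPM in shCtrl and 3171 and 2942 CPM in shFOXK2. Its groups did not overlap, but the log2FC of −0.62 (SE 0.27) had an adjusted p-value of 0.0715. MT-ND4 and MT-ND3 overlapped between groups, with log2FC values of 0.33 (SE 0.30) and 0.35 (SE 0.29).

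No mRNA of complexes III, IV and V was called. MT-CYB, the only mitochondrially encoded subunit of complex III, had a log2FC of −0.13 (SE 0.29, adjusted p-value 0.745). The cytochrome c oxidase mRNAs pointed in different directions, with MT-CO1 at −0.40 (SE 0.29), MT-CO2 at 0.58 (SE 0.30) and MT-CO3 at 0.09 (SE 0.29). MT-CO1 was at 10039 and 14099 CPM in shCtrl and at 9330 and 8960 CPM in shFOXK2, whereas MT-CO2 was at 7120 and 11019 CPM in shCtrl and at 12371 and 14660 CPM in shFOXK2. Neither overlapped between groups, and their adjusted p-values were 0.271 and 0.135. Without shCtrl replicate 2, MT-CO2 and MT-ATP6 were past the threshold (adjusted p-values 0.00676 and 0.0142). Of the ATP synthase subunits, MT-ATP6 had a log2FC of 0.58 (SE 0.30, adjusted p-value 0.119) and MT-ATP8 of 0.19 (SE 0.28, adjusted p-value 0.605).

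The rRNAs were not called either. MT-RNR2 (ENSG00000210082.2, chrM:1671-3229), the RNA of the large ribosomal subunit, was at 9851 and 12936 CPM in shCtrl and 7806 and 8004 CPM in shFOXK2. Its highest shFOXK2 level was under its lowest control level, with a log2FC of −0.53 (SE 0.28, adjusted p-value 0.139). For MT-RNR1 (ENSG00000211459.2, chrM:648-1601) the log2FC was −0.24 (SE 0.25, adjusted p-value 0.434).

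Between the shCtrl libraries much of the spread in these levels was shared, since replicate 2 was higher than replicate 1 for each of the 15 mRNAs and rRNAs. The shFOXK2 libraries showed no such common shift. There MT-CO2, MT-ND6, MT-RNR1 and MT-RNR2 were higher in replicate 2 and the rest of the 15 were lower. Each gene was also taken as a share of all MT- counts. Between the shCtrl libraries the shares of the 15 mRNAs and rRNAs differed by a median of 0.05 on the log2 scale and by at most 0.17, for MT-RNR1. Between the shFOXK2 libraries they differed by a median of 0.29 and by at most 0.44, for MT-CO2. The controls thus nearly superimposed within the mitochondrial pool, and the spread lay mostly between the shFOXK2 libraries.

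With the sum of MT- counts as the size of each library, 3 members were higher (MT-ND1, MT-ND2 and MT-ND6) and 4 lower (MT-ND4L, MT-ND5, MT-RNR2 and MT-TC). The background of this fit was 15.4% higher and 19.9% lower, 35.3% in all, and its median over all tested genes was −0.18, so the centre of the comparison moved. Shares did not overlap between groups for 16 of the 20, with 7 higher and 9 lower, against 69.4% of all tested genes, 29.3% higher and 40.1% lower. MT-ND2 was 2.82% of MT- counts in each control and 8.20% and 6.19% in shFOXK2, a log2FC of 1.35 (SE 0.25, adjusted p-value 0.000622). MT-ND4L went from 2.05% and 1.94% to 0.645% and 0.538%, a log2FC of −1.76 (SE 0.27, adjusted p-value 0.000143). MT-ND6 went from 1.97% and 1.86% to 4.01% and 4.71% (log2FC 1.19, SE 0.25, adjusted p-value 0.00152).

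Shares of other members were as follows, with the limit that a larger share of some members lowers the shares of others. MT-RNR2 was 14.9% and 13.9% of MT- counts in shCtrl and 8.12% and 9.56% in shFOXK2 (log2FC −0.71, SE 0.23, adjusted p-value 0.0232). MT-CO1, the gene with the most counts in the shCtrl pool, with length not considered, was 15.2% in both shCtrl libraries. It was 9.70% and 10.7% in shFOXK2, with a log2FC of −0.57 (SE 0.22) and an adjusted p-value of 0.0546. MT-ND5 fell from 6.03% and 5.83% to 3.30% and 3.51% (log2FC −0.80, SE 0.24, adjusted p-value 0.0146). MT-ND1 rose from 3.53% and 3.57% to 6.85% and 5.45% (log2FC 0.79, SE 0.24, adjusted p-value 0.0171). The shares of MT-ATP8 and MT-CO3 had log2FC values of −0.01 and −0.08. Without shFOXK2 replicate 1, MT-ND1 and MT-TC lost the call (adjusted p-values 0.0923 and 0.312) and MT-CO2 gained it (0.0177). Without shFOXK2 replicate 2, MT-TC lost it (0.0959) and MT-CO1 gained it (0.0135), and without shCtrl replicate 1 MT-RNR2 lost it (0.0556). With TMM factors computed within the MT- rows, MT-ND5, MT-RNR2 and MT-TC were not called (adjusted p-values 0.24, 0.335 and 0.0573).

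**Figure D2:**
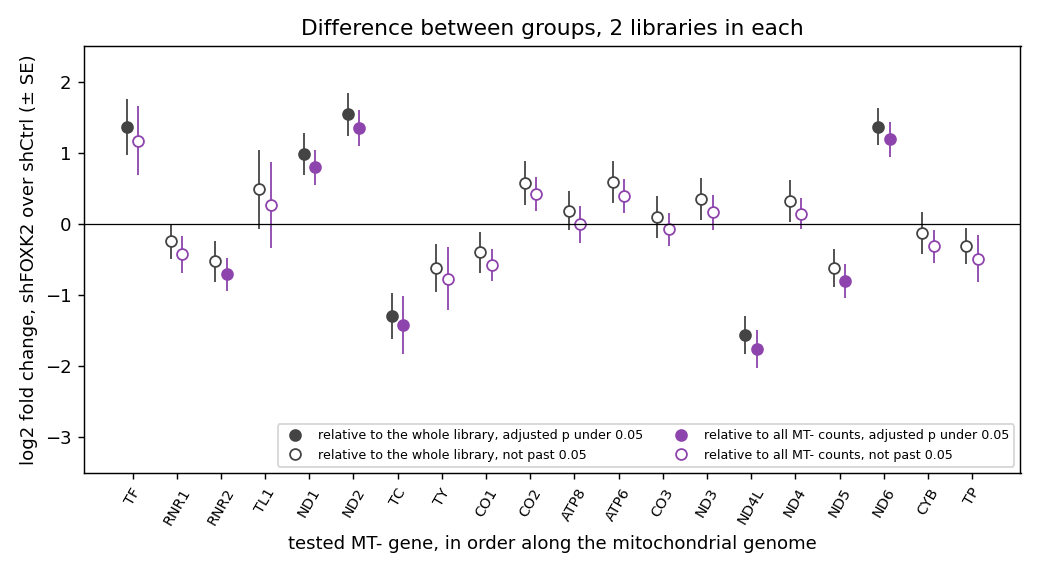
Log2 fold change of shFOXK2 over shCtrl for the 20 tested MT- genes in genome order, relative to the whole library (grey) and to all MT- counts (purple). Bars are SEs, filled points passed an adjusted p-value of 0.05 (n = 2 libraries in each group), and ND4L (−1.56 and −1.76) and ND2 (1.54 and 1.35) lie farthest from 0 in opposite directions among the mRNAs.

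MT-ND4L and MT-ND4, and likewise MT-ATP8 and MT-ATP6, are each known to be kept on a single mature mRNA that carries both reading frames. Their frames overlap on the genome, so their counts can be set against each other within a molecule. The overlaps are printed below on the plus strand of hg38, with the bases shared by both genes in capitals and 12 bases on either side in lower case.

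MT-ATP8/MT-ATP6: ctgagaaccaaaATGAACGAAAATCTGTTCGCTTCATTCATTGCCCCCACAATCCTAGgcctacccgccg

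MT-ND4L/MT-ND4: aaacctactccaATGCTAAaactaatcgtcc

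The first stretch is chrM:8515-8584 and holds an overlap of 46 bases. The second is chrM:10748-10778 and holds an overlap of 7 bases. In each, the capitals open with the ATG start codon of the downstream frame, which lies inside the end of the upstream frame. A read that touches such an overlap belongs to both genes, and counting tools of this kind usually drop it. The genes MT-ATP8 and MT-ND4L are short, so after that loss only 113 and 241 start positions remained from which a read of 50 bases would touch that gene and no other. Per start position, with strand ignored, MT-ATP8 had 186.1 and 189.6 counts in the controls and MT-CO3 had 170.1 and 185.5, so the order of levels depends on the length used.

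The frames of each shared mRNA did not keep a constant ratio. Counts of MT-ND4L over MT-ND4 were 0.142 and 0.138 in shCtrl and 0.0403 and 0.0346 in shFOXK2. The ratio varied little between replicates, and its mean went from 0.14 ± 0.00345 to 0.0375 ± 0.004 (SD, n = 2 each), a difference of −1.91 on the log2 scale. For MT-ATP8 over MT-ATP6 the ratios were 0.257 and 0.253 in shCtrl and 0.197 and 0.188 in shFOXK2, a difference of −0.41 on the log2 scale. The nuclear copy MTATP6P1, counted apart, was 20.9% and 21.4% of the MT-ATP6 count in shCtrl and 14.8% and 15.1% in shFOXK2. Its part in this ratio was not tested. In both pairs the upstream, shorter frame was the lower one relative to its partner in shFOXK2. Counts of a single frame, MT-ND4L included, are thus not the level of the whole shared mRNA. The part of RNA integrity and of read coverage along the mRNA was not tested. With 2 libraries a group, a permutation test of such a ratio cannot reach 0.05, so none was run.

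Ratios of other pairs of MT- genes varied to different degrees within a group. MT-ND6 over MT-ND5, which abut on opposite strands, went from 0.326 and 0.319 to 1.22 and 1.34. MT-CO2 over MT-CO1, both of complex IV, went from 0.709 and 0.782 to 1.33 and 1.64. For MT-ND2 over MT-ND1 the ratios were 0.801 and 0.791 in shCtrl and 1.20 and 1.14 in shFOXK2. MT-RNR1 over MT-RNR2, which are cut from the same precursor, changed least among the 7 pairs plotted, from 0.151 and 0.144 to 0.174 and 0.183. The groups did not overlap in any of these pairs, which were chosen after their values were seen. Levels of 75.4% of all tested genes did not overlap between groups either.

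**Figure D3:**
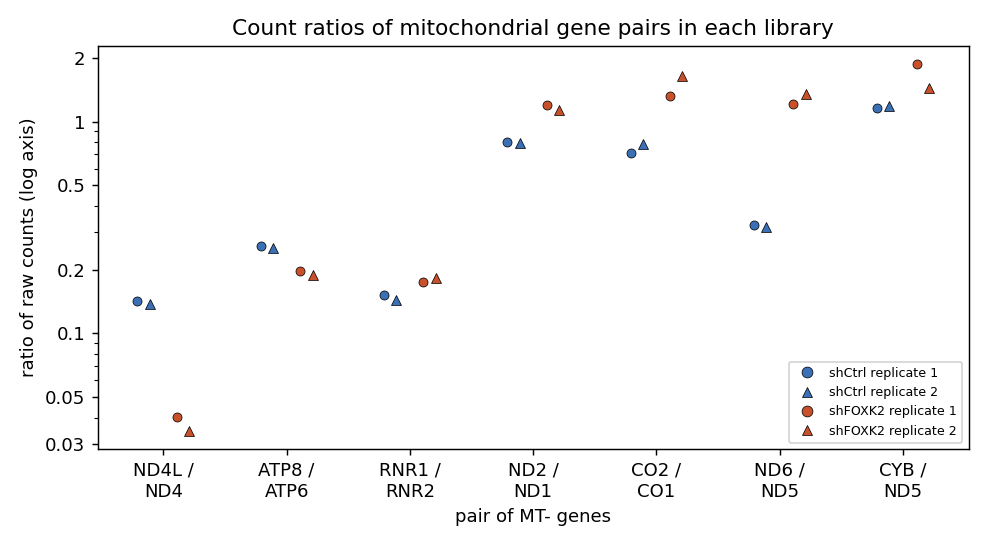
Ratio of raw counts for 7 pairs of mitochondrial genes in each library, on a log axis, each point a library. The ratio of ND4L to ND4 is 0.142 and 0.138 in shCtrl and 0.0403 and 0.0346 in shFOXK2, and ND6 over ND5 crosses 1 in the other direction.

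Sequence and position were described for the 13 mRNAs, with all points taken from the same 4 libraries. Spearman's rho of the fold change within the pool was 0.11 with A content, −0.20 with GC content, −0.18 with length, −0.03 with the longest run of A and −0.39 with position along the genome. No property ordered the mRNAs closely. The composition of the members is unlike that of most transcripts. Most mitochondrial mRNAs are rich in A, from 26.8% for MT-CO3 to 38.6% for MT-ATP8, beside a median of 26% over 14399 tested genes with a value, and the rRNAs hold 33% and 35.1% A, whereas MT-ND6 holds 19.6%. Across those 14399 genes the log2FC had a Spearman's rho of 0.33 with A content. An offset on A content moved the median gene by 0.25 on the log2 scale. With it, MT-TF was at −0.07 and MT-ND2, as given above, was not called. MT-ATP8, MT-RNR1, MT-RNR2 and MT-ND5 were then called lower, with log2FC values of −2.62, −1.49, −2.35 and −1.12. Without the offset MT-ATP8 overlapped between groups, at a log2FC of 0.19, so most of its −2.62 came from the offset. The offset was fitted to deviations of each library from the mean of all libraries, which include the group difference. MT-ATP8 and the rRNAs also lie far from the median A content. MT-ND4L, MT-TC, MT-ND1 and MT-ND6 kept their calls under that offset, at −1.54, −1.14, 0.97 and 1.74.

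Of the 22 tRNA genes, 5 had enough counts to be tested, 6 had 0 counts in all libraries and the highest count of any of the 17 untested genes in a library was 4. A count of 0 allows up to 3 counts, between 0.137 and 0.21 CPM in these libraries. Mature tRNAs lack a poly(A) tail and are about as long as a read, so such counts come from whatever tRNA sequence survived selection and did not touch a neighbour. The sequences of the 4 most counted tRNA genes are printed below 5′ to 3′ on the strand of the tRNA, with the anticodon in capitals.

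MT-TF: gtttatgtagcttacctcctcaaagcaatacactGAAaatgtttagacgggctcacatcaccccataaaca

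MT-TC: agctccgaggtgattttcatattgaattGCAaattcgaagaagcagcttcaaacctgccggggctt

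MT-TY: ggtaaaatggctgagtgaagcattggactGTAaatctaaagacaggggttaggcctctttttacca

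MT-TP: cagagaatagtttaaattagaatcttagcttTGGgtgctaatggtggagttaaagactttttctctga

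These are the tRNAs for phenylalanine (chrM:577-647, plus strand), cysteine (chrM:5761-5826, minus strand), tyrosine (chrM:5826-5891, minus strand) and proline (chrM:15956-16023, minus strand). MT-TP had 1692 and 1650 counts in the controls and 1015 and 1315 in shFOXK2, and was not called (log2FC −0.31, SE 0.25). MT-TC had 611 and 830 counts in the controls and 192 and 339 in shFOXK2, and it fell, with a log2FC of −1.30 (SE 0.33, adjusted p-value 0.00544). MT-TY, which shares 1 base with MT-TC, had 200 and 262 counts in the controls and 124 and 140 in shFOXK2 (log2FC −0.62, SE 0.34, adjusted p-value 0.15).

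MT-TF, the first gene after the heavy-strand promoters, had few counts, 52 and 58 in shCtrl against 140 and 99 in shFOXK2, and it was called higher (log2FC 1.37, SE 0.39, adjusted p-value 0.0112). Without shCtrl replicate 1 its adjusted p-value was 0.0595. MT-TL1, the tRNA for leucine beside MT-RNR2, had 17 and 16 counts in the controls and 28 and 10 in shFOXK2, and the groups overlapped. As with MT-ND6, counts of minus-strand tRNA genes, MT-TC included, cannot be told apart from RNA of the opposite strand if strand was not used. The room for a read that touches only that tRNA, counted with strand ignored, did not order the counts. MT-TP and MT-TF had 70 and 71 such start positions but means of 20.3 and 1.23 counts per position. MT-TC and MT-TK had 47 each, and MT-TK had 0 counts. MT-TN had 56 positions and 0 counts. Of the 3 tRNA genes with the most counts (MT-TP, MT-TC and MT-TY), each is read from the light strand, but the light-strand genes MT-TA, MT-TN, MT-TQ and MT-TS1 were at 0.

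**Figure D4:**
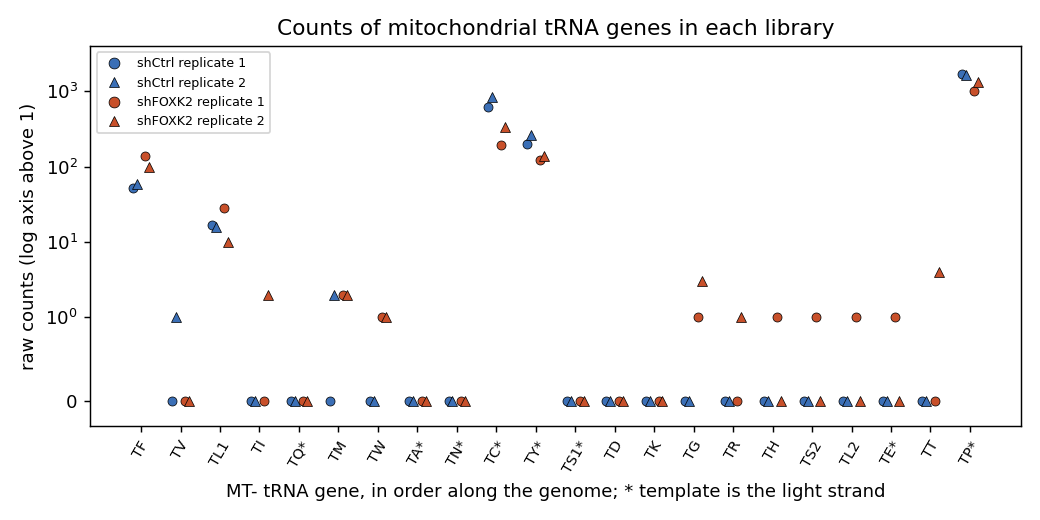
Raw counts of the 22 mitochondrial tRNA genes in each library, in genome order, on an axis that is logarithmic above 1 count and marks light-strand genes with an asterisk. The 5 tested genes are those above 4 counts, led by TP with 1015 to 1692 counts, and TC is lower in both shFOXK2 libraries.

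Reads of mitochondrial genes can also be assigned to old copies of the mitochondrial genome that lie on nuclear chromosomes. Of 405 such symbols, 296 had 0 counts in all libraries, and MTATP6P1 and MTND2P28 held 94.5% of the counts of all copies. The copies together amounted to 1.39% ± 0.0385 of MT- counts in the controls and 1.33% ± 0.164 in shFOXK2 (SD, n = 2 each). MTATP6P1 had 17091 and 18124 counts in the controls and 16535 and 15204 in shFOXK2, with a log2FC of 0.08 (SE 0.27). It was 20.9% and 21.4% of the MT-ATP6 count in shCtrl and 14.8% and 15.1% in shFOXK2, so the split between gene and copy differed between groups. MTND2P28 had 2084 and 2083 counts in the controls and 2169 and 1695 in shFOXK2, with a log2FC of 0.14 (SE 0.28), whereas that of MT-ND2 was 1.54. Of the 14 copies tested, 8 were called higher, 1 lower and 5 were not called, with a median log2FC of 1.45. Over all tested genes 25.7% were called higher and 22.7% lower, with a median of 0.04. Some copies passed the count filter only through their shFOXK2 counts, so the number called higher and the median are partly set by that filter. Apart from MTCO1P40, those called higher had at most 92 counts in a library (MTND4P12, MTND5P11, MTCYBP18, MTND6P4, MTND5P28, MTCO1P39 and MTND2P32), and the last 2 of them had 0 counts in both controls. MTCO1P12 fell (log2FC −1.12, SE 0.30, adjusted p-value 0.00736), and MTCO1P40 rose (1.74, SE 0.28, adjusted p-value 0.000281). With the copies' counts added to their MT- genes, the same numbers of members were called, 4 higher and 2 lower. The counts of near-identical copies are uncertain, because reads that fit both places equally well are commonly dropped.

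Nuclear genes that act on the mitochondrial genome and its RNA were examined as a list of 45 genes, all of which were tested. Of these, 17 were higher in shFOXK2, 1 was lower and 27 were not called, beside 25.7% higher and 22.7% lower over all tested genes. The median log2FC of the list was 0.47, beside 0.04 over all tested genes. With an offset on A content 17 of the 45 were called in either direction.

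Among genes for transcription, TFAM, which packages the mitochondrial genome and starts its transcription, went from 958 and 388 counts in shCtrl to 1779 and 2393 in shFOXK2. It rose, with a log2FC of 1.93 (SE 0.29, adjusted p-value 0.000173). POLRMT, the mitochondrial RNA polymerase, was at −0.10 (SE 0.26, adjusted p-value 0.776), and TFB2M, which melts the promoters with it, at 0.29 (SE 0.28, adjusted p-value 0.425). MTERF3, of the family of mitochondrial termination factors, had the largest rise of the list, from 135 and 98 counts to 577 and 602 (log2FC 2.60, SE 0.29, adjusted p-value 1.98e-05). Among replication genes, POLG, the catalytic subunit of the mitochondrial DNA polymerase, was at −0.32 and the helicase TWNK at 0.15, neither called. The other 4 replication genes on the list were higher, with log2FC values from 0.83 for SSBP1 to 1.14 for MGME1. Over all tested genes 25.7% were called higher and 22.7% lower. MTERF1, another termination factor, rose with a log2FC of 0.95 (SE 0.32).

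LRPPRC, which with SLIRP binds mitochondrial mRNAs and keeps them stable, had 4165 and 1571 counts in the controls and 4267 and 4910 in shFOXK2 (log2FC 1.00, SE 0.29, adjusted p-value 0.0115). The shCtrl libraries of LRPPRC differed widely in counts. SLIRP was at 0.45 (SE 0.24, adjusted p-value 0.143), and MTPAP, the mitochondrial poly(A) polymerase, at 0.48 (SE 0.28, adjusted p-value 0.173). FASTKD5, which is needed to release mRNAs at junctions that no tRNA marks, was the only member that fell, from 828 and 633 counts to 270 and 309 (log2FC −1.09, SE 0.26, adjusted p-value 0.00378). Of 8 tRNA modification genes, 4 were higher and none lower, beside 25.7% higher and 22.7% lower over all tested genes. PUS1 (2.08) and QTRT1 (2.04), which make pseudouridine and queuosine, changed most among the 8. PNPT1, the exonuclease of the mitochondrial RNA degradosome, rose with a log2FC of 1.67 (SE 0.30), and its helicase partner SUPV3L1 was at 0.36 and not called.

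Mitochondrial ribosomal proteins assemble with MT-RNR1 and MT-RNR2. Of 79 such genes, all tested, 22 were higher, 3 lower and 54 were not called, with a median log2FC of 0.40. MRPL1 (2.72) and MRPL12 (1.79) rose most, and MRPS24 (−1.42) and MRPL49 (−0.71) fell most. The share called higher was close to the background of 25.7%, and that called lower was below its background of 22.7%. The number called was 16 without shFOXK2 replicate 2 and 44 with an offset on A content, against 25 in the fit reported here.

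**Figure D5:**
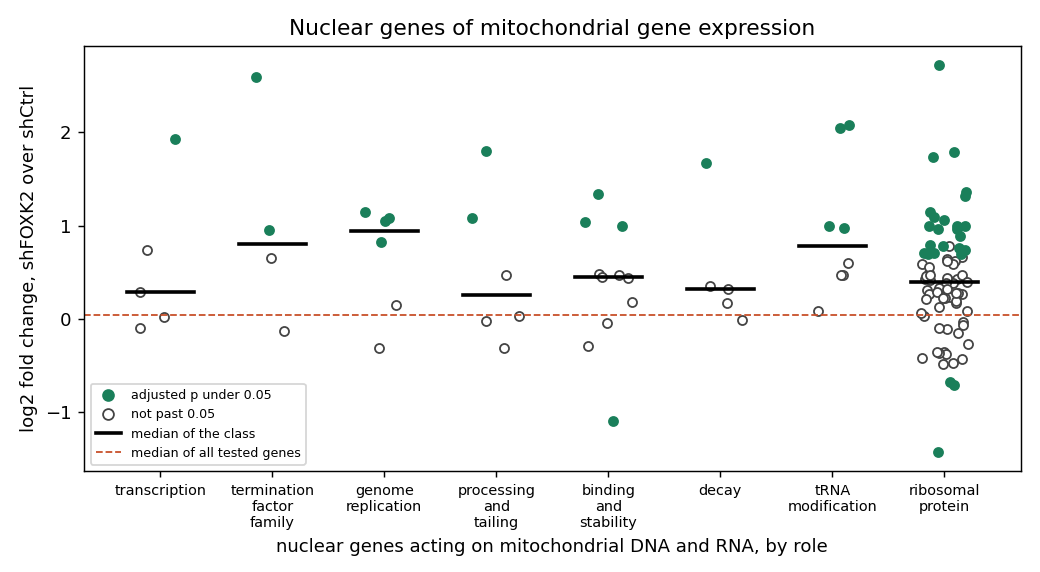
Log2 fold change of shFOXK2 over shCtrl for 45 nuclear genes acting on mitochondrial DNA and RNA, by role, and for 79 mitochondrial ribosomal protein genes, each point a gene. Black bars are medians of each class, the dashed line is the median of all tested genes (0.04), and filled points passed an adjusted p-value of 0.05.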

How the data were processed

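Poly(A)-selected RNA of 2 shCtrl and 2 shFOXK2 libraries was sequenced by the authors as single-end reads, aligned to hg38 with STAR 2.5.2 and counted with HTSeq, and these raw read counts for each gene symbol are what the authors deposited. The annotation and strand setting are not given in the sources used here. HTSeq drops reads that touch several genes in its usual mode, which lowers counts of short, abutting mitochondrial genes. The sum of counts was from 14284005 to 21950873 per library.

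Counts were filtered with filterByExpr, scaled with TMM factors and compared in edgeR 4.0.16 (R 4.3.3) by its 2-sided quasi-likelihood test, with Benjamini-Hochberg adjustment over 16417 genes and a threshold of 0.05. Each SE is the size of the log2 fold change over the root of its F statistic. A second fit took the sum of MT- counts as library size. Both fits moderated the spread of each gene across all tested genes, nuclear genes included. CPM used TMM factors. Lists are described by counts and medians, with no set test. Positions and sequences came from GENCODE v44 and hg38 (mitochondrial chromosome of 16569 bases). Ratios of neighbouring genes were chosen after their values were seen.

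Alternatives were DESeq2 1.42.0, other scalings and filters, an offset on A content (lowess, span 0.2), the replicate number as a block, nuclear copies added, other pool sizes and leaving out each library. The scripts were tested on simulated counts in which 200 genes changed by 2 on the log2 scale. The fit to the whole library recovered 92.5% of them, and 7.96% of its calls were false. With MT- counts as library size these values were 92.5% and 7.5%. The simulation gave all genes the same dispersion and changed a far smaller part of them than the 48.4% called here.

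Members and lists were chosen with earlier results of these data known. Named genes were all MT- symbols, 8 nuclear RNA-handling genes fixed by name, the 3 highest and 3 lowest called genes of that list, the 2 highest and 2 lowest called ribosomal protein genes, the 3 most counted nuclear copies, FOXK2 and MALAT1. MTCO1P12, the other nuclear copies called, the markers, MGME1, PNPT1 and SUPV3L1 were named after their values were seen.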

Additional observations from a re-analysis of the deposited data

How the results depend on the processing

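Direction and side of the threshold were kept by 206 of 231 single-gene results relative to the whole library and by 91 of 100 within the mitochondrial pool, over alternatives that left out no library. MT-ND4L and MT-ND6 kept their calls under every alternative run in both fits. The count called higher (4) was 6 with no low count filter, where MT-ATP6 and MT-CO2 were added (adjusted p-values 0.0379 and 0.0285). It was 2 under an A content offset and 3 once the block was added, where MT-ND2 was called (log2 fold change 0.87, adjusted p-value 0.0335). The count called lower (2) was 5 with no low count filter, 6 with the A content offset and 7 with that offset and the replicate block. That offset removes genes without a composition value, and otherwise the cause was not tested. Leaving out each library gave 2 to 6 higher and 2 to 6 lower. Ribosomal protein genes called (25) were 44 with the A content offset, 45 with the block added, and 16 to 21 with a library left out.

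Deviations of same-numbered libraries from their group means were only weakly related (correlation −0.138 over all tested genes, −0.231 over the 15 mRNAs and rRNAs). No label says what the numbers share. Fitting the replicate number as a block called 7270 genes in place of 7940, of which 4 higher and 2 lower were MT- genes. Within the pool the block left 2 higher and 2 lower, without MT-ND1, MT-ND5 and MT-RNR2 (adjusted p-values 0.0806, 0.0738 and 0.109), and TMM factors within MT- rows left 1 lower. A crossed block, chosen after seeing the data, called 8350 genes, of which 5 higher and 3 lower were MT- genes.

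Reversed values belonged to genes not called in the fits reported here, except MT-TF. MT-ATP8 was called lower under the A content offset, alone and with the block (adjusted p-values 0.000938 and 5.72e-10). With the A content offset, alone and with the block, MT-ATP8 was at −2.62 and −2.62, MT-ND4 at −0.12 and −0.041, MT-TF at −0.065 and −0.072, and MT-TL1 at −0.76 and −0.83. MT-CO3 was at −0.0057 with no filter. Within the pool, TMM factors within MT- rows put MT-ATP8 at 0.16 and MT-CO3 at 0.10. With a library left out, log2 fold changes ran from −0.15 to 0.41 for MT-ATP8, −0.21 to 0.35 for MT-CO3, −0.42 to 0.064 for MT-CYB and −0.68 to 1.14 for MT-TL1. Within the pool they ran from −0.20 to 0.17 for MT-ATP8, −0.023 to 0.33 for MT-ND3 and −0.76 to 0.87 for MT-TL1. The difference in MT- share of counts, 1.30 percentage points, ran from 0.212 to 2.38 with a library left out. The A content offset moved the median log2 fold change of genes in both fits by 0.25 and the missing filter by −0.10. Of all genes called within the pool, 43.7% were higher, against 56.7% with TMM factors within MT- rows, 38.4% with the 13 mRNAs as the pool and 33.9% with at least 10 counts in every library. With a library left out that share ran from 28% to 63.6%. With at most 4 counts in a library, 17 tRNA genes were too sparse to test, and the part of depth in this was not tested.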
